A study of Mus musculus with 6 samples.

Results

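The myogenic transcription factors are the proteins that set and keep the identity of skeletal muscle. In the present data they are represented by 9 genes, listed by name with earlier results of these data known. They include the myogenic regulatory factors (MRFs) Myod1, Myog, Myf5 and Myf6 and the paired box factor Pax7. The others are the MADS box factors Mef2a, Mef2c and Mef2d and the homeobox factor Six4. All 9 were found among the 13226 genes of the deposited count table. The samples were whole tibialis anterior (TA) muscles of male C57BL/6 mice aged 8 weeks, taken 7 days after injection of AAV6:Yap-shRNA (3 muscles) or of a control vector (3 muscles) into the contralateral limbs of 3 animals. The vector field of the control samples names AAV6:LacZ-shRNA, whereas their titles call the vector empty, so they are called control here. AAV6 is an adeno-associated virus that transduces muscle fibres, and the hairpin it carries directs degradation of the Yap transcript. The plasmid that carries the Yap hairpin also holds eGFP behind a CMV promoter, which is not specific to fibres. The question that the comparison addresses is whether the transcripts of these factors changed in muscle in which Yap, the transcriptional co-activator of the Hippo pathway, had been lowered for 7 days.

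The MRFs are basic helix-loop-helix proteins that bind E-box elements together with E proteins. Myf5 and Myod1 commit cells to the muscle lineage, Myog drives the differentiation and fusion of myoblasts, and Myf6 (Mrf4) is the MRF that prevails in adult fibres. Pax7 marks satellite cells, the stem cells that lie beneath the basal lamina of the fibre. Mef2 proteins act with the MRFs on muscle promoters and in adult fibres respond to calcium signals that release them from class IIa histone deacetylases. Six4 and its relatives bind MEF3 elements, among them one in the Myog promoter, and sustain the programme of fast fibres. Yap itself does not bind DNA and acts largely through Tead factors, which recognise the M-CAT element.

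The promoters of Myog and Mef2c are shown because they hold elements for several of these protein families side by side. Each run covers the 250 bases before a transcription start of the RefSeq annotation (build GRCm38.p6), Myog at chr1:134289754-134290003 and Mef2c at chr13:83503784-83504033, both on the plus strand. The start that GENCODE gives for Myog lies 15 bases before the end of its run. Capitals mark the matches, searched on both strands, to the E-box (CANNTG), the M-CAT element (CATTCC), the MEF3 element (TCAGGTT) and the core of the MEF2 element (TA, then 4 bases that are each A or T, then TA).
Myog: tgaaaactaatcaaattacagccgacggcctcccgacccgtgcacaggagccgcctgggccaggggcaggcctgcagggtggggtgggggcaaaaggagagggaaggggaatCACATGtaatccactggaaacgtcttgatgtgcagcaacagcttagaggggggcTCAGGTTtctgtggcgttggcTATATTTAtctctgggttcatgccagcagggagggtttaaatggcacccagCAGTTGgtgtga
Mef2c: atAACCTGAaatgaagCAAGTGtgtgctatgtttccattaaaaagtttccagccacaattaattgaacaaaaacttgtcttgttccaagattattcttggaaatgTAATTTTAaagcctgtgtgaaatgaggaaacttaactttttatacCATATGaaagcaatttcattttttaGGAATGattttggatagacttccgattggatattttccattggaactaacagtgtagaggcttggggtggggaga
In the Myog promoter the matches began 138 bases (E-box), 84 bases (MEF3), 63 bases (MEF2) and 12 bases (E-box) before the start. The Mef2c promoter held a MEF3 match at 248 bases, E-boxes at 234 and 100 bases, a MEF2 core at 145 bases and the M-CAT match at 75 bases. No match printed here overlapped another. RefSeq promoters were held for 7 of the 9 genes, 10 promoters in all, since Mef2c has 3 and Six4 has 2. The M-CAT match of Mef2c was the only one among these 10 promoters, MEF3 matches were found in those of Myog, Mef2c and Six4, MEF2 cores in those of Myog and Mef2c, and E-boxes in those of Myog and Mef2c. Over the 32851 RefSeq promoters of the same length, 66.2% held an E-box, 12.6% an M-CAT match, 8.56% a MEF2 core and 3.49% a MEF3 match. These matches describe letters in a window and do not show binding.

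Libraries held 11987167 to 12710393 counts, and the markers of TA muscle, such as the skeletal actin Acta1, the creatine kinase Ckm and the fast myosin Myh4, were present in every library, the 10 listed markers summing to 127700 to 152500 CPM (counts scaled to the size of the library, with TMM factors). Yap1 stood at 65.3 to 71.2 CPM in control muscles and at 23.9 to 39.5 CPM in Yap-shRNA muscles (46.5% of control, log2 fold change -1.10, SE 0.16). In edgeR's quasi-likelihood fit its adjusted p was 0.436, whereas DESeq2 (adjusted p 5.85e-07) and the likelihood ratio test (adjusted p 2.22e-06) called it. Some libraries stood apart in other tissues' transcripts. The tendon markers (Tnmd, Fmod, Comp, Scx and Thbs4) summed to 639.3 CPM in control 1 and 529.3 CPM in Yap-shRNA 3, against 126.1 to 173.7 CPM in the other 4 libraries. The 6 fibroblast markers were high in the same libraries, at 1998 and 2281 CPM against 1033 to 1229 CPM in the other 4. Transcripts of liver plasma proteins summed to 377.0 CPM in control 3 and to 0.399 to 44.6 CPM elsewhere. Where leaving out 1 library turned the sign of a myogenic factor, the value without it is given.

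None of the 9 myogenic factors changed beyond the spread between muscles. No member passed an adjusted p of 0.05 in the quasi-likelihood test, for which the background was 0% (0 of 13226 genes, with 232 genes, or 1.75%, at an unadjusted p under 0.05, 0.885% higher and 0.869% lower with Yap-shRNA). None of the 9 had an unadjusted p under 0.05, with values from 0.19 (Mef2c) to 0.96 (Six4). The members were called by neither DESeq2 nor the likelihood ratio test, each of which called 5 genes of the table (0.0378%). In each of the 9 genes the CPM values of the groups overlapped, whereas 5.27% of all genes had groups that did not (2.56% higher and 2.71% lower with Yap-shRNA). The log2 fold changes ran from -0.33 in Myog to 0.16 in Myod1, with a median of -0.0060 beside -0.0029 over all genes tested. Of the 9, 4 had a positive and 5 a negative log2 fold change. The 95% intervals bound how large a change these muscles could hide: those of 8 genes lay within a log2 fold change of 1 in either direction, the exception being Myog, and those of 5 genes (Myf6, Mef2a, Mef2c, Mef2d and Six4) lay within 0.5. In whole muscle a change in the number of cells of a type cannot be told apart from a change in RNA per cell. This bears most on Pax7 and Myf5, which are made by satellite cells.

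**Figure D1:**
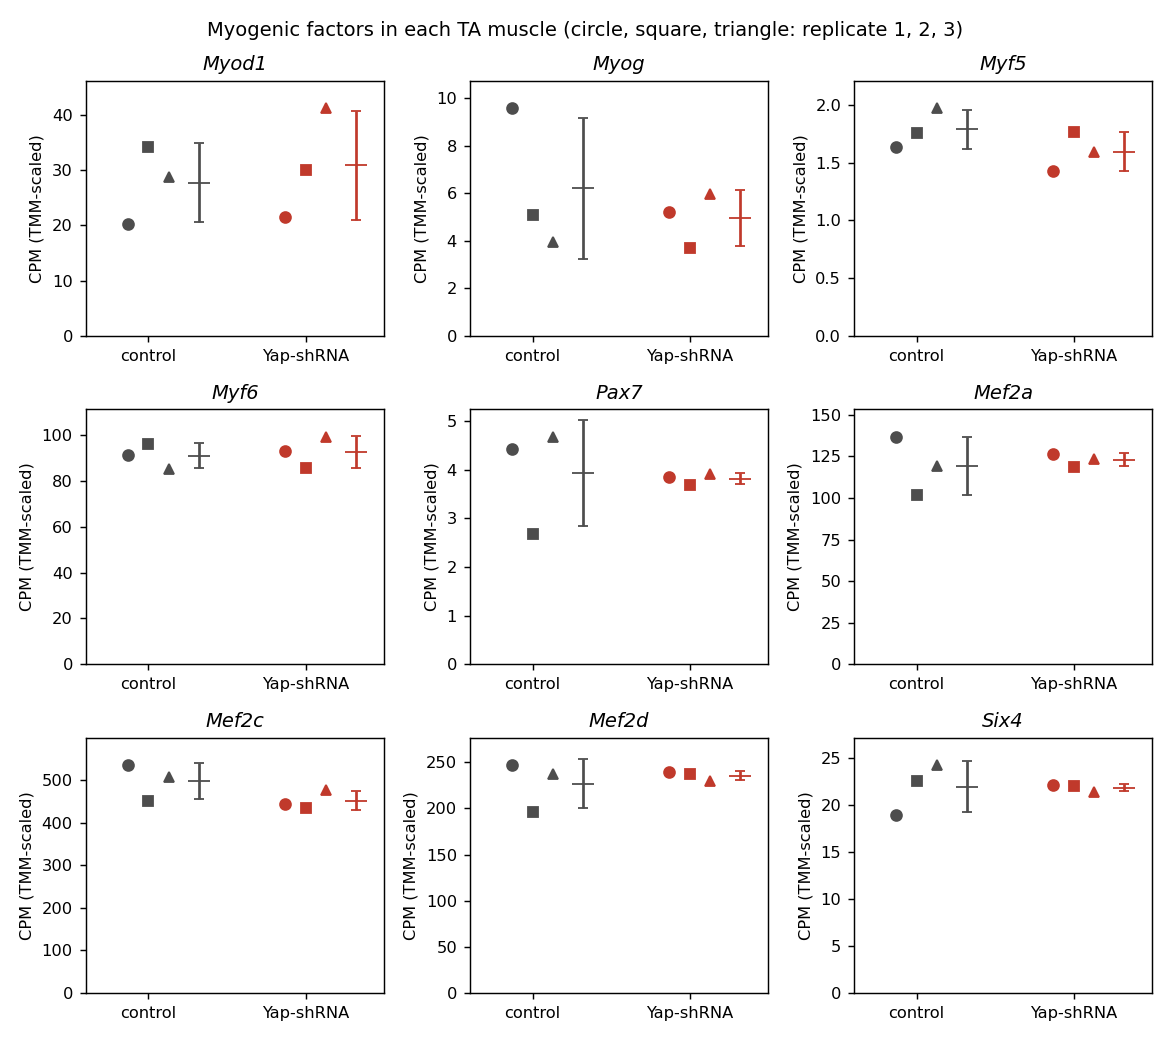
Level of each myogenic factor (CPM after TMM scaling, linear axis from 0) in the 3 control and 3 Yap-shRNA muscles. Points are muscles, and the bar beside them gives the mean and SD. The groups overlap in all 9 panels, and relative to its level the spread is widest for Myog, whose highest muscle (9.57 CPM) is 2.60 times its lowest (3.69 CPM).

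The factors differed widely in level. Per kilobase of exon (CPM divided by the length of all annotated exons of the gene), Myf6 had the highest level, with 72.5 over the 6 libraries (range 67.4 to 78.4). Mef2d followed at 38.6 CPM per kb (32.8 to 41.2) and Mef2c at 30.2 CPM per kb (27.6 to 34.1), whose ranges overlapped. Below them, on the same scale, were Myod1 at 15.7 (10.8 to 22.1), Mef2a at 8.25 (6.94 to 9.32), Myog at 3.73 (2.47 to 6.40) and Six4 at 2.01 (1.74 to 2.23), none of whose ranges overlapped that of a neighbour. The lowest levels per kb were those of Myf5 at 0.812 (0.685 to 0.945) and Pax7 at 0.661 (0.457 to 0.798), which overlapped. Length matters most for the Mef2 genes: with the length of the principal transcript alone, Mef2d stood at 131.0 CPM per kb, Mef2c at 75.7, Myf6 at 72.5 and Mef2a at 45.5, and Mef2d came first. Mef2a then stood above Myod1 (15.7), and Six4 at 3.20 (2.77 to 3.55) overlapped Myog at 3.73 (2.47 to 6.40). The principal transcript of Mef2d has 1767 bases, 1518 of them coding, against 5985 bases over all its exons. That of Mef2c has 6277 bases, 1452 of them coding. As counts were per gene and not per transcript, the first place of Mef2d depends on the transcript chosen.

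Among the MRFs, Myod1 (ENSMUSG00000009471), the factor of lineage commitment that in adult muscle is richer in fast fibres, lies on the plus strand of chromosome 7 of GRCm38 (chr7:46376474-46379099) in 3 exons. In the order of the replicate numbers, as in all such series here, control muscles had 20.2, 34.2 and 28.8 CPM, and 21.5, 30.0 and 41.1 CPM were measured after Yap-shRNA. The lowest and the second lowest value were those of the muscles numbered 1, one from each group, and the highest was Yap-shRNA 3. The groups stood at 27.7 ± 7.08 CPM and 30.9 ± 9.86 CPM (SD, n = 3), a log2 fold change of 0.16 (SE 0.25, 95% interval -0.39 to 0.71, adjusted p 1.00 by edgeR's quasi-likelihood test). The coefficient of variation over the 6 muscles was 26.9%, where counting alone would give 5.24%. The log2 fold change of Myod1 was -0.027 without control 1, -0.10 without Yap-shRNA 3 and -0.29 without both.

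Myog (ENSMUSG00000026459), which encodes myogenin, lies at chr1:134289989-134292548 on the plus strand, in 3 exons, behind the promoter printed above. It stood at 9.57, 5.10 and 3.94 CPM in control muscles and at 5.20, 3.69 and 5.98 CPM in Yap-shRNA muscles. Control 1 was the highest of the 6, Yap-shRNA 3 the second, and the other 4 lay between 3.69 and 5.20 CPM. The group means were 6.20 ± 2.98 CPM in control and 4.96 ± 1.17 CPM in Yap-shRNA muscles (SD, n = 3), or 79.9% of control, with a log2 fold change of -0.33 (SE 0.33, 95% interval -1.07 to 0.41, adjusted p 1.00 by the quasi-likelihood test of edgeR). Without control 1 the log2 fold change was 0.13, and without control 1 and Yap-shRNA 3 together it was -0.028. Without Yap-shRNA 3 alone it was -0.49. The sign of the difference in Myog thus depended on control 1.

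Myf6 (ENSMUSG00000035923) and Myf5 (ENSMUSG00000000435) are neighbours on the minus strand of chromosome 10, at chr10:107492853-107494737 and chr10:107482908-107486134, with 6718 bases between them and 3 exons each. Myf6 stood at 91.1, 96.0 and 85.2 CPM in control muscles and at 93.0, 85.3 and 99.0 CPM in Yap-shRNA muscles. It was the steadiest of the 9 factors, its highest muscle only 1.16 times its lowest. Its log2 fold change was 0.027 (SE 0.098, 95% interval -0.19 to 0.25, adjusted p 1.00 by edgeR's quasi-likelihood test), so a change of Myf6 beyond 0.875 to 1.19 times control lay outside the interval. Its sign turned without control 3 (-0.017) and without Yap-shRNA 3 (-0.025). Myf5, whose transcript in adult muscle comes mainly from satellite cells and muscle spindles, was covered by 17 to 24 reads per library. In control muscles these were 21, 21 and 24 reads, and in Yap-shRNA muscles 17, 23 and 20. At 1.79 ± 0.169 CPM against 1.60 ± 0.170 CPM (SD, n = 3) the log2 fold change was -0.16 (SE 0.27, 95% interval -0.76 to 0.44), and a difference was not detectable at this depth and spread. Over 6 muscles the coefficient of variation of Myf5 was 10.9%, below the 21.8% of counting alone.

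Pax7 (ENSMUSG00000028736; chr4:139737062-139833528, minus strand, 9 exons) was covered by 32 to 57 reads. It stood at 4.44, 2.68 and 4.68 CPM in control muscles and at 3.86, 3.69 and 3.91 CPM in Yap-shRNA muscles. All 3 Yap-shRNA muscles lay between the lowest control muscle and the other controls. The log2 fold change was -0.044 (SE 0.23, 95% interval -0.57 to 0.49), and it was 0.052 without control 1 and 0.097 without control 3. The other markers of satellite cells and myoblasts were followed as a list. Of 12 listed genes 11 were tested (Calcr was not in the table), 5 had a positive and 6 a negative log2 fold change, none had an unadjusted p under 0.05, and the median was -0.0087. The nearest to the threshold were Cdh15, which encodes M-cadherin, at 26.7 ± 1.83 CPM in control and 29.5 ± 2.48 CPM in Yap-shRNA muscles (SD, n = 3; log2 fold change 0.15), and the syndecan gene Sdc4 (log2 fold change 0.17, SE 0.14).

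The Mef2 genes were expressed at high read numbers, and their counting error was small. Mef2c (ENSMUSG00000005583; chr13:83504034-83667080, plus strand, 12 exons in its principal transcript) is needed for sarcomere assembly in skeletal muscle and is also made by endothelial and immune cells. It stood at 535.5, 451.1 and 508.6 CPM in control muscles and at 444.6, 434.5 and 477.0 CPM in Yap-shRNA muscles. A single control muscle, control 2, fell inside the range of the Yap-shRNA group. The means were 498.4 ± 43.1 CPM and 452.1 ± 22.2 CPM (SD, n = 3), 90.7% of control, with a log2 fold change of -0.14 (SE 0.099, 95% interval -0.37 to 0.084, adjusted p 1.00 by edgeR's quasi-likelihood test). This was the smallest unadjusted p of the 9 factors, and Mef2c ranked 1308 of 13226 genes by p. In each of the 6 fits that left out 1 muscle the log2 fold change of Mef2c stayed negative, between -0.21 and -0.086. The summed level of 6 endothelial markers was 301.8 to 366.9 CPM in control and 327.0 to 359.1 CPM in Yap-shRNA muscles, and that of 6 macrophage markers 67.1 to 168.4 CPM and 116.8 to 151.0 CPM, so both sums overlapped between the groups. Of the macrophage sums, that of control 1 was the highest. All 6 macrophage markers nevertheless had positive log2 fold changes (median 0.41). Cd163 was the 1 of these 6 whose groups did not overlap, beside 2.56% of all genes higher. The part of these cells in the level of Mef2c was not tested.

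Mef2a (ENSMUSG00000030557) lies at chr7:67231163-67372858 on the minus strand, and Mef2d (ENSMUSG00000001419) at chr3:88142372-88172086 on the plus strand. Mef2a stood at 136.8, 101.8 and 119.5 CPM in control muscles and at 126.5, 118.8 and 123.7 CPM in Yap-shRNA muscles. For Mef2d the values were 246.7, 196.3 and 237.1 CPM in control and 239.3, 237.1 and 229.8 CPM in Yap-shRNA muscles. In both genes control 1 was the highest and control 2 the lowest muscle, and the 3 Yap-shRNA muscles lay between them. The log2 fold change was 0.043 for Mef2a (SE 0.12, 95% interval -0.22 to 0.31) and 0.054 for Mef2d (SE 0.11, 95% interval -0.19 to 0.29). Without control 2 they were -0.059 and -0.039. Exons of Mef2a share 302 bases with Lysmd4 on the opposite strand, and those of Mef2d share 531 bases with the antisense gene 1700113A16Rik. As no source used here states a strand setting for the counting, reads over these bases are uncertain. Gene counts also cannot separate the splice forms of the Mef2 genes, among them the muscle form of Mef2d.

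**Figure D2:**
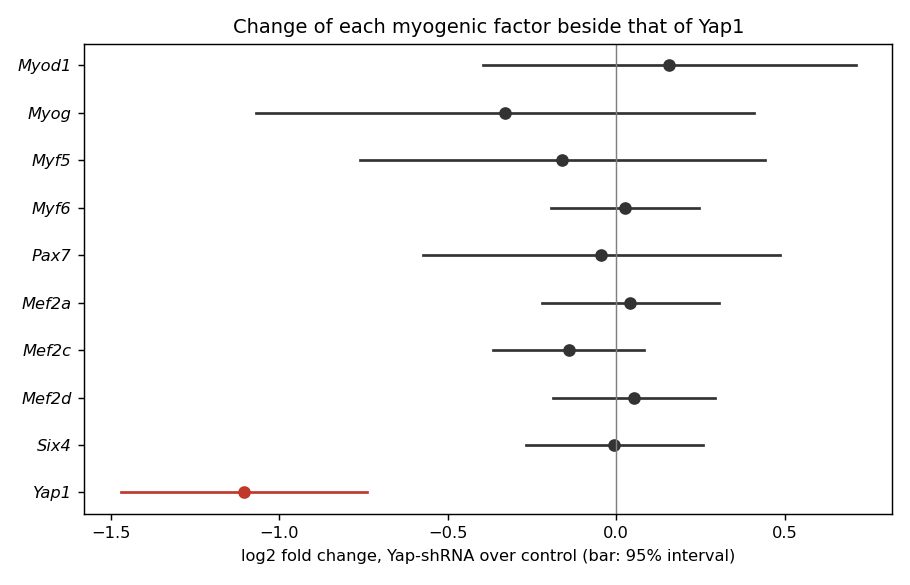
Log2 fold change (Yap-shRNA over control, horizontal axis) of the 9 myogenic factors and of Yap1, with 95% intervals from edgeR's quasi-likelihood fit. All 9 intervals of the myogenic factors include 0, that of Myog is the widest (-1.07 to 0.41), and that of Yap1 (-1.47 to -0.74) does not include 0.

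Six4 (ENSMUSG00000034460; chr12:73099609-73113456, minus strand, 3 exons) stood at 18.9, 22.6 and 24.2 CPM in control muscles and at 22.1, 22.0 and 21.4 CPM in Yap-shRNA muscles. The Yap-shRNA muscles were nearly alike and sat inside the range of the controls. The log2 fold change was -0.0060 (SE 0.12, 95% interval -0.27 to 0.26), the smallest in size of the 9. Its sign was positive with limma-voom (0.0025) and with library totals only (0.013), as well as without control 2 (0.017), control 3 (0.072) or Yap-shRNA 3 (0.0080). Of 15 listed homeobox, paired box, Eya, Dach and T-box factors, 14 were tested (Pax3 was not in the table). Of these, 8 had a positive and 6 a negative log2 fold change. None had an unadjusted p under 0.05 in the quasi-likelihood test, and the median log2 fold change was 0.010. Six2 (2.64 ± 0.899 CPM in control and 3.61 ± 0.676 CPM in Yap-shRNA muscles, SD, n = 3) and Tbx15, a T-box factor of glycolytic fibres (302.1 ± 7.39 and 279.7 ± 19.6 CPM), had the smallest p of this group, and their groups overlapped.

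Ratios between factors within 1 library need no scaling between libraries and were compared for 3 quantities by exact two-sided permutation tests over the 6 muscles, for which 0.10 is the smallest p that 3 against 3 allow. Of the reads on Mef2a, Mef2c and Mef2d, Mef2c took 58.3, 60.2 and 58.8% in control muscles and 54.9, 55.0 and 57.4% with Yap-shRNA. The groups did not overlap, the share being lower with Yap-shRNA. The means differed by -3.33 percentage points (59.1 ± 1.00% against 55.8 ± 1.45%, SD, n = 3), with an exact permutation p of 0.10, or 0.30 after Benjamini-Hochberg adjustment over the 3 ratios. The nearest muscles were control 1, with an exact 95% binomial interval of 57.4 to 59.2%, and Yap-shRNA 3, with 56.5 to 58.4%, so the gap between them was within counting error, which is all that these intervals cover. Leaving out any 1 muscle gave differences from -4.17 to -2.77 percentage points, and leaving out control 1 and Yap-shRNA 3 together gave -4.58.

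Of the reads on the 4 MRFs, Myf6 took 74.4, 70.0 and 71.0% in control muscles and 76.8, 70.6 and 67.0% with Yap-shRNA. The highest and the lowest share were both in Yap-shRNA muscles, and the means differed by -0.338 percentage points (exact permutation p = 0.90). The difference was 0.94 without control 1, 0.090 without Yap-shRNA 2 and 1.89 without Yap-shRNA 3. For each Myog read there were 2.11, 6.70 and 7.31 Myod1 reads in control muscles and 4.13, 8.15 and 6.88 with Yap-shRNA. On the log2 scale the ratio was 2.23 ± 1.00 in control and 2.62 ± 0.510 in Yap-shRNA muscles (SD, n = 3; exact permutation p = 0.60), a difference of 0.39 that was -0.19 without control 1. The muscles numbered 1 had the lowest ratio in each group.

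**Figure D3:**
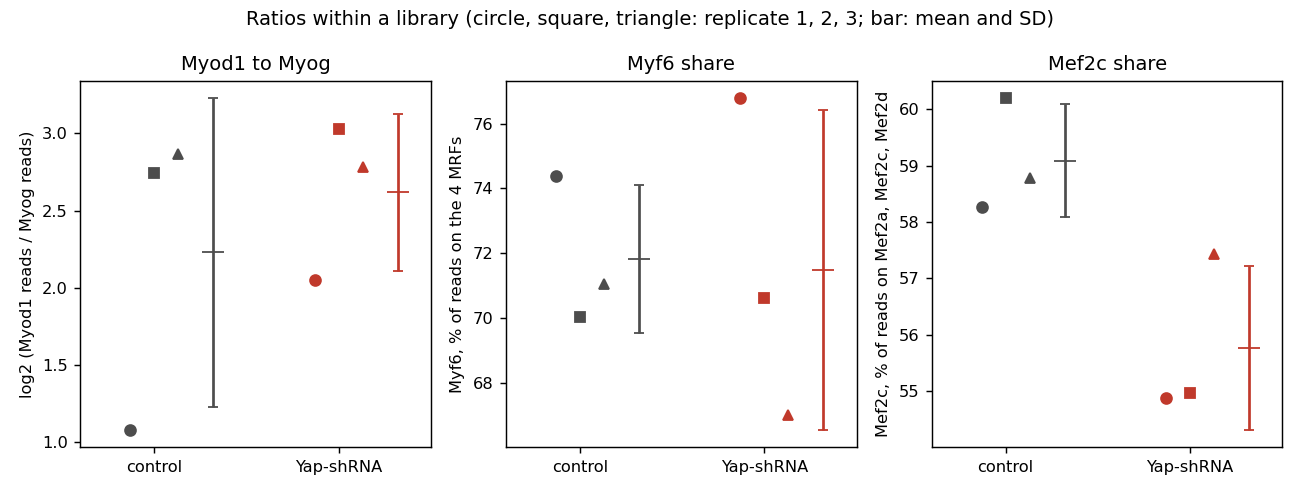
Ratios within a library in the 3 control and 3 Yap-shRNA muscles (points, with the mean and SD beside them): log2 of Myod1 over Myog reads, Myf6 as a percentage of reads on the 4 MRFs, and Mef2c as a percentage of reads on Mef2a, Mef2c and Mef2d (vertical axes do not start at 0). The Mef2c share is 58.3 to 60.2% in control and 54.9 to 57.4% in Yap-shRNA muscles, while the groups overlap in the other panels.

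The proteins that pair with the MRFs or hold them inactive were followed through a list of 18 genes, all of them tested. The E protein genes Tcf3, Tcf4 and Tcf12, whose products are the partners of the MRFs, had log2 fold changes of 0.056, -0.11 and 0.0014, and the inhibitors Id1, Id2 and Id3 had -0.047, 0.14 and -0.055. No gene of the list passed the adjusted threshold, 12 were positive and 6 negative, and the median was 0.038. In 3 genes the groups did not overlap, all lower with Yap-shRNA, where 2.71% of all genes were so. The first was Mdfi, which encodes I-mfa, a protein that binds MRFs and keeps them from DNA. It stood at 4.12, 1.92 and 1.80 CPM in control and at 1.09, 0.768 and 1.36 CPM with Yap-shRNA, which gave a log2 fold change of -1.29 (SE 0.41, unadjusted p 0.0109, adjusted p 1.00 by edgeR's quasi-likelihood test) on 10 to 53 reads. The second was Hey1, a repressor downstream of Notch, at 5.99, 5.43 and 5.74 CPM in control and 4.03, 4.99 and 4.39 CPM in Yap-shRNA muscles. The third, Snai2, had 17 to 22 reads and a log2 fold change of -0.22 (SE 0.27). The largest positive change of the list was that of Twist1 (log2 fold change 0.91, SE 0.43), on 13 to 62 reads, and its groups overlapped. It stood at 1.71, 1.84 and 1.07 CPM in control and at 1.76, 2.00 and 4.94 CPM with Yap-shRNA. Only Yap-shRNA 3, a library high in tendon and fibroblast markers, stood far above the other muscles.

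Of the 21 relatives, cofactors and repressors of Mef2, 20 were tested (Mef2b was not in the table). None passed the adjusted threshold or had an unadjusted p under 0.05, 8 were positive and 12 negative, and the median log2 fold change was -0.0040. Hdac4, a class IIa deacetylase that represses Mef2, was the only one whose groups did not overlap, at 35.1, 37.0 and 36.9 CPM in control and 39.7, 39.3 and 40.7 CPM with Yap-shRNA (log2 fold change 0.13, SE 0.086). That is 1 of 20 genes, beside 5.27% of all genes in either direction. The smallest p of this list, 0.0772 unadjusted, was that of Mamstr, which encodes a co-activator of Mef2 proteins (log2 fold change -0.25, SE 0.13), and its groups overlapped.

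**Figure D4:**
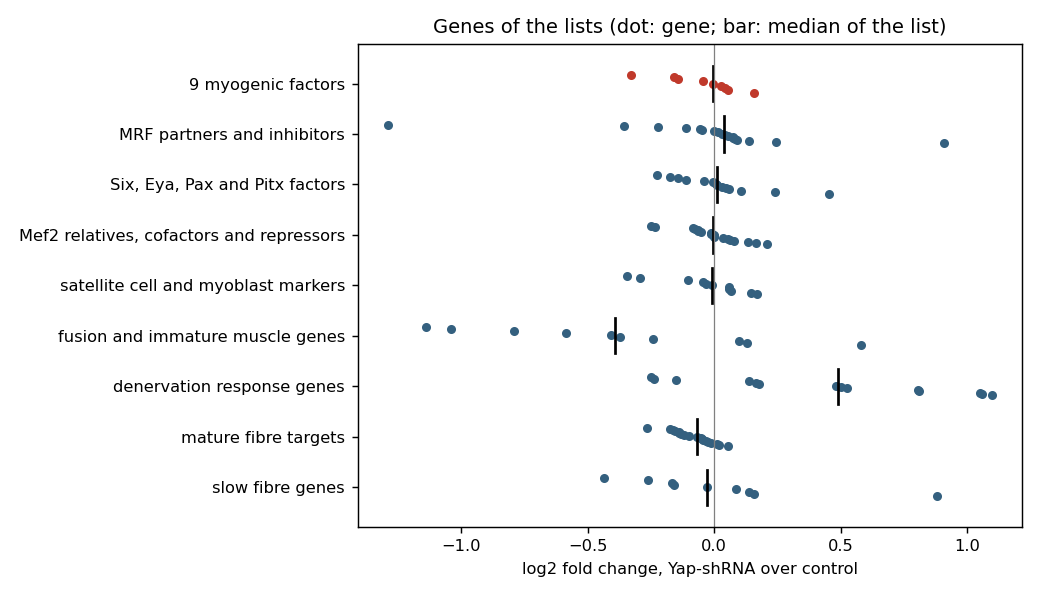
Log2 fold change (Yap-shRNA over control, horizontal axis) of the 9 myogenic factors and of the tested genes of 8 lists (vertical axis). Each dot is a gene and each bar the median of its list. The myogenic factors lie between -0.33 and 0.16, and the medians run from -0.39 (fusion and immature muscle genes) to 0.49 (denervation response genes).

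Genes of myoblast fusion and of immature muscle lie downstream of the MRFs. Of 13 listed names, 10 were tested, the fusion protein myomaker among them under its older name Tmem8c. None passed the adjusted threshold of the quasi-likelihood fit, which no gene of the whole table passed. All lists were read in that fit only. The median log2 fold change was -0.39, with 3 genes positive and 7 negative. Actc1, the cardiac actin that immature skeletal muscle also makes, stood at 374.4, 480.7 and 340.9 CPM in control and at 124.9, 254.8 and 161.1 CPM in Yap-shRNA muscles, with no overlap (log2 fold change -1.14, SE 0.24, unadjusted p 0.000987, adjusted p 1.00 by edgeR's quasi-likelihood test). Cdkn1a, the cell cycle inhibitor p21 that rises as myoblasts leave the cycle, stood at 35.2, 29.0 and 38.8 CPM in control and at 47.2, 43.3 and 63.9 CPM in Yap-shRNA muscles (log2 fold change 0.58, SE 0.16, unadjusted p 0.00591). Cdkn1c had groups that did not overlap, at 15.6 to 19.2 CPM in control and 13.6 to 15.4 CPM in Yap-shRNA muscles. In all, the groups of 1 gene higher and 2 lower did not overlap, beside 2.56% and 2.71% of all genes.

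Other genes of this list were high in control 1, the library with the highest Myog, and in Yap-shRNA 3. The embryonic myosin Myh3 was at 13.6 CPM in control 1 and 16.9 CPM in Yap-shRNA 3, and at 1.15 to 3.44 CPM in the other 4. The neonatal myosin Myh8 was at 19.9 and 13.2 CPM in the same libraries and at 2.53 to 7.86 CPM elsewhere, and Tmem8c at 6.38 and 3.03 CPM and at 0.230 to 1.23 CPM elsewhere. These are also the 2 libraries with the highest tendon markers (639.3 and 529.3 CPM) and fibroblast markers (1998 and 2281 CPM). Myog was at 9.57 CPM in control 1, but its 5.98 CPM in Yap-shRNA 3 lay near the 5.20 CPM of Yap-shRNA 1. The part of tendon or connective tissue in these values was not tested. The 3 genes of the table nearest to Myog over the 6 libraries were Paqr8, Enpp6 and Thsd4, with root mean square differences of 0.12 in centred log2 CPM, against 0.44 for the spread of Myog itself about its mean. All 3 were low, at 0.538 to 2.34 CPM. They were picked as the smallest differences in a search of the table of 13226 genes, so near matches were to be found in any case. Their likeness to Myog was not tested.

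**Figure D5:**
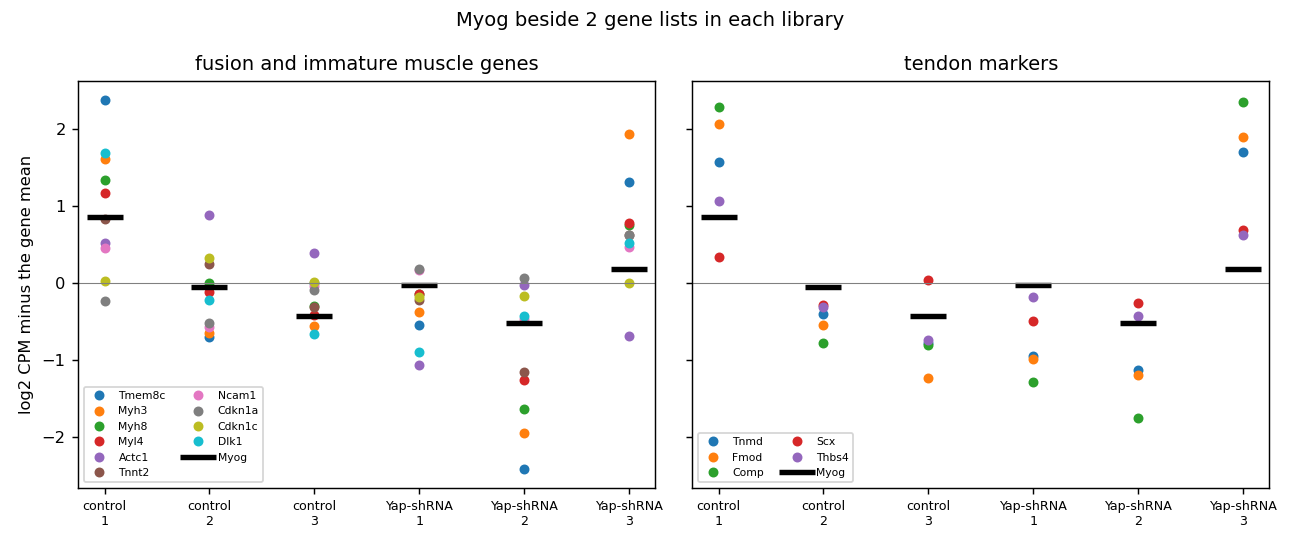
Log2 CPM of each gene minus its own mean over the 6 libraries (vertical axis) in each library (horizontal axis), for the fusion and immature muscle genes (left) and the tendon markers (right). The black bar is Myog, which stood at 9.57 CPM in control 1, 5.98 CPM in Yap-shRNA 3 and 3.69 to 5.20 CPM elsewhere. Myh3, Myh8 and the tendon markers were highest in control 1 and Yap-shRNA 3.

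The genes known to respond to loss of nerve activity, a state in which Myog rises, had a median log2 fold change of 0.49 over the 14 listed, all tested, with 11 positive and 3 negative and none past the adjusted threshold. Myog itself had a log2 fold change of -0.33, which was 0.13 without control 1. Gadd45a had the smallest p, at 16.6, 18.1 and 15.4 CPM in control and 28.9, 17.1 and 26.1 CPM in Yap-shRNA muscles (log2 fold change 0.52, SE 0.18, unadjusted p 0.0185), and its groups overlapped. Among the acetylcholine receptor genes, Chrna1 was at 35.7 and 31.1 CPM in Yap-shRNA 1 and 3 but at 12.1 CPM in Yap-shRNA 2, with controls at 16.5 to 22.3 CPM, and the foetal subunit Chrng was at 2.85 and 2.39 CPM in the former 2 and 0.154 CPM in Yap-shRNA 2, with controls at 0.334 to 1.71 CPM. The adult subunit Chrne was at 15.6 to 20.2 CPM in control and 13.4 to 15.6 CPM in Yap-shRNA muscles, and it was the 1 gene of the list whose groups did not overlap, although the nearest values of the groups were alike when rounded (1 of 14 genes, beside 2.71% of all genes lower). Chrnb1 was at 44.3 to 58.6 CPM in control and 32.3 to 50.6 CPM in Yap-shRNA muscles.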

How the data were processed

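RNA was sequenced from polyA+ TruSeq libraries of 6 TA muscles. The authors deposited raw read counts per gene, without normalisation, and the submitters' processing notes name bcl2fastq 2.20.0.422 and the build GRCm38. The aligner, counter and strand setting are not given in the sources used here. The lowest sum of a gene over the 6 libraries was 60 counts. Pairs of libraries within a group gave a chi-square of 7.62 to 21.4 for each degree of freedom, and each library was treated as its own sample. The labels say that muscles were paired within 3 animals but not that equal numbers mark 1 animal.

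Counts were scaled by TMM and fitted over all 13226 genes with edgeR 4.0.16 in R 4.3.3 (quasi-likelihood test, no covariate), two-sided, with Benjamini-Hochberg adjustment over all genes and a threshold of 0.05. Each SE was derived from the fold change and its F statistic. The script was checked on simulated counts. DESeq2 1.42.0, limma 3.58.1 (voom), the likelihood ratio test, other scalings, a minimum of 10 counts in every library, a replicate block and leaving out muscles were the alternatives. Positions and exon lengths came from GENCODE M21 (GRCm38), in which 13199 of the 13226 identifiers were found. Named genes were the members, Yap1, the 2 genes of smallest p in each list and the 3 nearest to the member of widest range. The MEF2 pattern was relaxed after a first search of the promoters. Some genes that this rule names are not reported here. Other genes named were chosen after their values were seen. Members and lists were chosen with earlier results of these data known.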

Additional observations from a re-analysis of the deposited data

How the results depend on the processing

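No myogenic factor was called under any alternative, and its adjusted p ranged from 0.76 to 1.00. Of all genes, 0 were called by the quasi-likelihood test, 5 by DESeq2, 5 by the likelihood ratio test, and 0 to 1 when 1 muscle was left out (1 without Yap-shRNA 3). Yap1 passed with DESeq2 (-1.10, adjusted p 5.85e-07) and the likelihood ratio test (-1.10, 2.22e-06), and leaving out 1 muscle gave -1.29 to -0.93. The sign of Six4 turned with limma-voom (0.0025) and library totals only (0.013). With 1 muscle left out, log2 fold changes ran from -0.10 to 0.36 for Myod1, -0.57 to 0.13 for Myog, -0.24 to -0.084 for Myf5, -0.025 to 0.082 for Myf6, -0.25 to 0.097 for Pax7, -0.059 to 0.15 for Mef2a, -0.21 to -0.086 for Mef2c, -0.039 to 0.12 for Mef2d and -0.10 to 0.072 for Six4. From 0 to 2 members then had groups that did not overlap, beside 10.5 to 23.8% of all genes. The log2 Myod1 to Myog ratio differed by -0.19 to 0.71, the Myf6 share by -3.00 to 1.89 and the Mef2c share by -4.17 to -2.77 percentage points. Leaving out control 1 and Yap-shRNA 3 together, chosen after seeing the data, gave 3 called genes, Yap1 at -1.26 (adjusted p 0.0564), Myod1 at -0.29, Myf6 at -0.023, Pax7 at 0.035, the ratio at -0.27, the Myf6 share at 3.17, and 3 members (Mef2c, Mef2d and Six4) without overlap beside 35% of all genes. The causes were not tested.

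The replicate block, which pairs muscles of the same number, changed no call and gave 0 genes over the table, with log2 fold changes of 0.14 for Myod1, -0.27 for Myog and -0.14 for Mef2c. The deviations from the group mean of muscles sharing a number correlated at -0.065, 0.20 and -0.32 across genes. Not every muscle correlated best with its own number. Control 1 correlated best with Yap-shRNA 3 (0.38), and both were high in tendon markers. Such correlations also carry differences in tissue content and cannot show whether equal numbers mark the same animal. As the labels do not state it either, the numbers were not taken as pairs in the main fit. No low-count filter was set beyond the deposited table, so the setting without a filter gave the values of the report. Read numbers were lowest for Myf5 (17 to 24 reads), Pax7 and Myog. For Myog the coefficient of variation over all muscles (38.2%) was nonetheless well above the 12.0% of counting alone.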

Other observations

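The contractile and metabolic genes of adult fibres whose promoters or enhancers are known to use E-box, MEF2 or MEF3 sites were followed as a list. All 19 listed genes were tested, and none reached an unadjusted p of 0.05 in edgeR's quasi-likelihood fit. The median log2 fold change was -0.067, and 16 of the 19 were negative. In each of the 19 the groups overlapped. The list summed to 189000 to 224200 CPM in control and to 182100 to 213100 CPM in Yap-shRNA muscles. The fast regulatory light chain Mylpf had the smallest p, at 11840 ± 217 CPM in control and 10500 ± 1643 CPM in Yap-shRNA muscles (SD, n = 3; log2 fold change -0.17, SE 0.12), and the calcium buffer of fast fibres Pvalb stood at 11840 ± 1180 CPM and 10750 ± 798 CPM. Of the 9 slow fibre genes, 4 were positive and 5 negative (median -0.029). The slow light chain Myl2 was at 2.02, 2.76 and 1.23 CPM in control and 3.27, 3.84 and 3.99 CPM in Yap-shRNA muscles, with no overlap (log2 fold change 0.88, SE 0.29, unadjusted p 0.0139, adjusted p 1.00 by the same test), whereas the slow sarcomere gene Myoz2 was at 41.5 ± 3.95 CPM and 37.2 ± 7.74 CPM.

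Markers of other cells gave these values. All 6 macrophage markers had positive log2 fold changes (median 0.41), among them Mrc1 (0.64, SE 0.30). Their sum was nonetheless highest in control 1, at 168.4 CPM, against 116.8 to 151.0 CPM in Yap-shRNA muscles. Cd163 was at 2.93 to 6.07 CPM in control and 6.60 to 7.34 CPM in Yap-shRNA muscles. It was the 1 gene of the 6 whose groups did not overlap, beside 2.56% of all genes higher. Of the 6 fibroblast markers 5 were positive (median 0.16), with Dpt at 0.34 (SE 0.15, unadjusted p 0.0433) and Dcn at 0.20 (SE 0.20), and of 5 smooth muscle markers 4 were negative (median -0.095), with Acta2 at -0.49 (SE 0.27) and Myh11 at -0.24 (SE 0.23). The median was 0.028 for the 6 endothelial markers, with Cldn5 at 0.17 (SE 0.20) and Tek at 0.068 (SE 0.12), and 0.039 for the 5 Schwann cell markers, with Pmp22 at 0.071 (SE 0.12). It was -0.063 for the 5 tendon markers, with Thbs4 at -0.15 (SE 0.43) and Fmod at -0.18 (SE 0.95), and 0.079 for the 4 blood markers tested, with Hbb-bt at 0.15 (SE 0.30) and Hbb-bs at 0.12 (SE 0.29). The 5 liver transcripts had a median of -3.22, and 3 of them, Apoa1 and Apoa2 included, had an unadjusted p under 0.05, with overlapping groups and Apoa2 at 0.156, 9.28 and 54.2 CPM in control muscles 1 to 3 and at 1.93, 4.45 and 0.0797 CPM in Yap-shRNA muscles 1 to 3. Over the 10 markers of TA muscle the median was -0.039, with Tnnt3 at -0.13 (SE 0.11) and Actn3 at -0.099 (SE 0.099).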
